A study of Mus musculus with 12 samples.

Results

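Mice with B16 F1 melanoma both in the brain and outside it were compared with mice that had the tumor in the brain only, within the animals given IgG, the control antibody. The comparison takes every library labelled IgG, which is 6 of the 12 libraries of the series, 3 per group. All mice were C57BL/6, all received 100000 B16 cells in the brain, and the brain tumor was taken at day 9. The groups are called intracranial-only and both-tumor here, and replicates are named 1 to 3 in accession order. RNA came from the dissected brain tumor in every library, so the tumor outside the brain was not itself sequenced. Its site, and the dose and schedule of the antibody, are not stated in the sources used here. The other 6 libraries come from mice given anti-PD-1 with anti-CTLA-4, the same tumor arrangements in 3 libraries each, and are used to estimate the spread and to set the IgG difference beside the one under therapy. The question is what melanoma elsewhere in the body goes with in an otherwise untreated brain tumor.

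The mouse melanoma line B16 F1 makes pigment and expresses few antigen-presenting molecules until interferon gamma, mainly from T cells and natural killer cells, induces them. A tumor in the brain also contains blood vessels, resident microglia, entering leukocytes and some neighbouring brain tissue. As it outgrows its blood supply, hypoxia-inducible factors accumulate in its cells and switch on glucose transport, glycolysis and vessel-forming signals such as vascular endothelial growth factor. In bulk RNA, fewer cells of a type and less RNA per cell cannot be told apart.

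The 6 IgG libraries held 18427495 to 20648957 counted reads, and mitochondrial genes took 0.490% to 1.43% of them. Levels are given as CPM, counted reads scaled to library size with TMM factors, in the order of replicates 1, 2 and 3. The correlation of log2 CPM ran from 0.940 to 0.984 within the intracranial-only group and from 0.917 to 0.986 within the both-tumor group. Over the 9 pairs between the groups it ran from 0.931 to 0.976, inside the range within the both-tumor group. A library of each group stood apart from its replicates. In intracranial-only replicate 2, interferon-induced and immune genes were far above replicates 1 and 3. In both-tumor replicate 2, genes of neurons, glia and immune cells were far below replicates 1 and 3, and its sample name carries a suffix that the others lack and that the sources used here leave unexplained. Among 1086 genes whose intracranial-only replicates spanned more than 2 log2 units, replicate 2 was the farthest from the others for 843. Among 2093 such genes in the both-tumor group, replicate 2 was the farthest for 1916.

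Across all genes, no gene passed the test. Of 15925 genes tested with edgeR's quasi-likelihood test, 0 (0%) reached a Benjamini-Hochberg adjusted p under 0.05. The adjusted p was 1 for every gene. Without adjustment, 188 genes had p under 0.05, of which 149 (0.936% of those tested) were lower and 39 (0.245%) were higher in the both-tumor group. The smallest unadjusted p was 0.00398. The count of calls was also 0 with DESeq2, with limma-voom and after leaving out any of the 12 libraries. The biological coefficient of variation was 33.5%. The values below are therefore levels and differences in these 6 libraries, none of which passed the adjusted threshold. A further measure is whether all 3 libraries of a group lay beyond all 3 of the other. That held for 443 genes (2.78%) lower and 267 genes (1.68%) higher in the both-tumor group, which is the background for each count below.

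The hypoxia and glycolysis genes were lower in the both-tumor libraries as a list. All 23 listed genes passed the filter on low counts, all 23 had a log2 fold change below 0, and their median was -0.54 against 0.01 over all genes tested. In 15 of the 23, or 65.2%, every both-tumor library lay below every intracranial-only library, where 2.78% of all genes did so. The list was chosen with earlier results of these data known, so this share is described and not tested. All 15 genes are read from the same libraries and are not 15 separate findings. The mean log2 CPM of the list was 7.80, 7.75 and 7.49 in the intracranial-only libraries and 7.06, 7.30 and 6.51 in the both-tumor libraries, so the groups did not overlap. Of the 23 genes, 9 had an unadjusted p under 0.05 and 0 passed after adjustment.

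**Figure D1:**
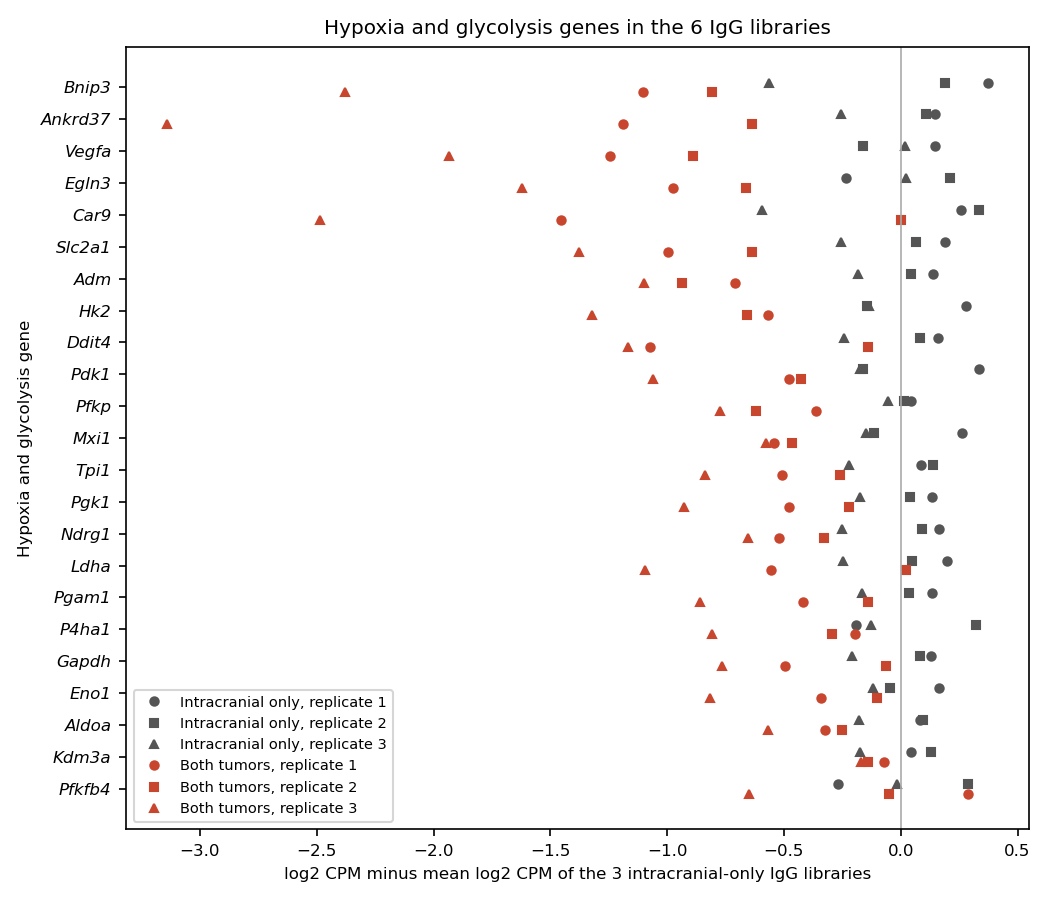
Log2 CPM of each of the 23 hypoxia and glycolysis genes in the 6 IgG libraries, relative to the mean of the 3 intracranial-only libraries (grey; both-tumor libraries in red; circle, square and triangle are replicates 1, 2 and 3). In 15 genes all red points lie left of all grey points, and both-tumor replicate 3 is the lowest library for most genes.

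The sequences upstream of 4 of these genes are shown because hypoxia-inducible factors bind a short core, ACGTG or GCGTG, in the control regions of their targets. Each stretch runs from 250 bases before to 50 bases after the first start site listed for the gene in RefSeq, on GRCm38.p6, and is written 5′ to 3′ on the gene's strand. Capitals mark either core on either strand. A core can be part of the longer CACGTG, which other factors bind.
Vegfa, chr17:46032328-46032627, - strand: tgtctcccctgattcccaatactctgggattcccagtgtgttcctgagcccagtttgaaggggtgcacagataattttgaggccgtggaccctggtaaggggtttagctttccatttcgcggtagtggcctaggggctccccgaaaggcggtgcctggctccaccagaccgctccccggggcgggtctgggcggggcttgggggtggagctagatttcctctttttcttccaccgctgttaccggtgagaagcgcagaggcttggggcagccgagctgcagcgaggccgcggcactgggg
Adm, chr7:110627407-110627706, + strand: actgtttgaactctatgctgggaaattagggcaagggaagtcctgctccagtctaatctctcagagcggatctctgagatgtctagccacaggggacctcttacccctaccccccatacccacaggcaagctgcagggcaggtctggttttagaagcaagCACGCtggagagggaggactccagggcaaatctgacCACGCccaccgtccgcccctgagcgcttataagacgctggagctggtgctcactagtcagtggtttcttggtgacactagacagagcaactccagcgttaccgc
Bnip3, chr7:138909457-138909756, - strand: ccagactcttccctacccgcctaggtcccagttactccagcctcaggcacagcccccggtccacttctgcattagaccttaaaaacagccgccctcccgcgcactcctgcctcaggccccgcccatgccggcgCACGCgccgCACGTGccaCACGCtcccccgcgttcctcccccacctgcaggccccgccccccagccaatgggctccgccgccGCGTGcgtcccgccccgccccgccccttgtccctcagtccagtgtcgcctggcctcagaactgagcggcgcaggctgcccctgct
Pgk1, chrX:106186850-106187149, + strand: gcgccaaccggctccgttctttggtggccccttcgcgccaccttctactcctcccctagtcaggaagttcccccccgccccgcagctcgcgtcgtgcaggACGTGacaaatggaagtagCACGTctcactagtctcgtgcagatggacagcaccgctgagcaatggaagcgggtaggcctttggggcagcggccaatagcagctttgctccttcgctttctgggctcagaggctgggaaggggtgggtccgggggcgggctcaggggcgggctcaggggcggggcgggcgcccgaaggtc
The Bnip3 stretch holds 5 cores, where its CACGTG counts once for each strand, those of Adm and Pgk1 hold 2 each, and the Vegfa stretch holds 0. Of the 22 listed genes with a promoter in the table, 18 (81.8%) have a core in this window, against 43.8% of the 27025 genes in the table. The listed genes were picked as hypoxia and glycolysis genes, and the 27025 include genes not tested here. The shares are therefore no test. These matches describe letters in a window, and say nothing of whether a factor was bound in these tumors. Sequence outside the window was not searched, so a gene without a core here can have one elsewhere.

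Among the genes for signals to vessels, Vegfa, Adm and Pgf were lower without overlap, and of 11 hypoxia and angiogenic ligand genes Vegfa and Pgf had no overlap, with a list median of -0.33. Vegfa, the main growth factor for endothelial cells (chr17:46016993-46032369, GRCm38), was at 142, 115 and 130 CPM in the intracranial-only libraries and at 54.3, 69.3 and 33.7 CPM in the both-tumor libraries. The highest both-tumor library was well below the lowest intracranial-only one. Its log2 fold change was -1.30 ± 0.47 (SE, n = 3 per group; edgeR unadjusted p = 0.0181). Adm, which encodes the vasodilator peptide adrenomedullin (chr7:110627661-110629820), was at 66.8, 62.4 and 53.4 CPM against 37.0, 31.6 and 28.3 CPM. These groups were also apart, with a log2 fold change of -0.91 ± 0.32 (edgeR unadjusted p = 0.0165). Pgf, placental growth factor, which binds the same receptor as Vegfa, was at 11.5, 17.3 and 9.94 CPM against 6.17, 6.87 and 3.22 CPM. It too was separate between the groups, at -1.25 ± 0.53.

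Flt1, the receptor for both Vegfa and Pgf, was at 30.4, 24.0 and 34.1 CPM against 25.1, 12.7 and 16.5 CPM, with overlapping groups and a log2 fold change of -0.70 ± 0.33. Angpt2, a vessel-destabilizing ligand that sprouting endothelium makes, had a log2 fold change of 0.03. In the list of vessel tip cell genes, which mark sprouting vessels and include Adm and Pgf, 9 of 10 tested genes were below 0, 2 had groups that did not overlap, and the median was -0.66, or -0.36 without both-tumor replicate 3. In the list of endothelial identity and barrier genes the median was -0.18 and 0 of 14 had groups that did not overlap. Pecam1, a general endothelial adhesion gene, was at 17.1, 18.7 and 19.7 CPM against 18.4, 14.3 and 14.9 CPM, which overlap.

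Glucose uptake and glycolysis genes made up most of the remaining separated members. Slc2a1, the glucose transporter GLUT1 (chr4:119108711-119137983), was at 248, 227 and 182 CPM against 109, 139 and 83.6 CPM. Every both-tumor library was lower, and the log2 fold change was -0.98 ± 0.43. Hk2, the hexokinase that traps glucose in the cell, was at 344, 257 and 259 CPM against 192, 180 and 114 CPM, with a log2 fold change of -0.83 ± 0.32. Among the later enzymes, Tpi1 was at 3106, 3224 and 2511 CPM against 2058, 2445 and 1637 CPM. Pgk1, which makes ATP in the pathway (chrX:106187100-106203699), was at 1335, 1250 and 1079 CPM against 872, 1044 and 640 CPM. Both enzymes were separate between groups with smaller differences, -0.53 ± 0.20 for Tpi1 and -0.52 ± 0.21 for Pgk1. Aldoa, aldolase A, differed by -0.38 ± 0.14 and Pfkp, a phosphofructokinase, by -0.58 ± 0.26, also without overlap. Ldha, which turns pyruvate into lactate, overlapped, at 3047, 2750 and 2240 CPM against 1807, 2700 and 1243 CPM. Both-tumor replicate 2 was the library inside the intracranial-only range for Ldha. Oxidative phosphorylation genes, the alternative route to ATP, had a median of -0.06, and 0 of 13 had groups that did not overlap.

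Over the 23 hypoxia and glycolysis genes the log2 fold changes ran from -1.34 to -0.10. Bnip3, which directs mitochondria to degradation (chr7:138890836-138909519), was at 258, 227 and 135 CPM against 92.6, 114 and 38.3 CPM. The log2 fold change was -1.34 ± 0.55 (edgeR unadjusted p = 0.0336), and the groups were apart although each spanned a wide range. Ankrd37 was at 7.74, 7.54 and 5.86 CPM against 3.06, 4.50 and 0.793 CPM. Egln3, an oxygen-sensing prolyl hydroxylase that marks the factors for destruction, was at 5.85, 7.95 and 6.98 CPM against 3.49, 4.35 and 2.23 CPM, again with no overlap. Car9, carbonic anhydrase 9, which exports acid from hypoxic cells, was at 65.7, 69.5 and 36.5 CPM against 20.1, 55.1 and 9.82 CPM. Its groups overlapped, as both-tumor replicate 2 lay above intracranial-only replicate 3. Kdm3a and Pfkfb4, at -0.13 ± 0.13 and -0.10 ± 0.25, were nearest to 0 in the list. The genes for the factors' alpha subunits, Hif1a and Epas1, which are controlled mainly through protein stability, differed by -0.10 ± 0.11 and -0.25 ± 0.24 with overlapping groups.

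The list's difference did not rest on either of the libraries that stood apart. Its median was -0.57 without intracranial-only replicate 2 and -0.69 without both-tumor replicate 2, and ran from -0.47 to -0.69 over the 6 single omissions. Between 15 and 22 of its members had groups that did not overlap in these omissions, when 5.07% to 12.7% of all genes were lower without overlap. Under RLE size factors 12 members did so. Under therapy, the both-tumor libraries differed from the intracranial-only ones by a median of -0.57 over the same genes, of which 18 were below 0. The list's mean log2 CPM was 6.95, 8.11 and 7.26 in the intracranial-only therapy libraries. It was 6.92, 6.87 and 7.10 in the both-tumor therapy libraries, so the groups overlapped under therapy. Vegfa had a log2 fold change of -1.29 there (edgeR adjusted p = 0.0429), and Adm one of 0.08 (adjusted p = 0.854). Of all 15925 genes, 7231 passed the adjusted threshold under therapy, so a gene that did so was no exception. For 0 of the 23 genes did the difference between the antibodies pass the test, while 3505 of all 15925 genes (22.0%) passed it. The count was 0 on omitting any 1 of 8 particular libraries among the 12.

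Red blood cell genes had the lowest median of any list, at -2.88, with wide ranges within the groups. Of 8 listed names 5 were tested. Hbb-bs, an adult beta globin (chr7:103826534-103828096), was at 109, 8.72 and 31.1 CPM in the intracranial-only libraries and at 6.03, 10.5 and 0.496 CPM in the both-tumor libraries. Intracranial-only replicates 1 and 3 were above all both-tumor libraries, and replicate 2 lay among them. The log2 fold change was -3.13 ± 1.24 (edgeR unadjusted p = 0.0288), and -1.81 without intracranial-only replicate 1. Hba-a1, an adult alpha globin, had the same pattern at 17.3, 1.29 and 5.43 CPM against 1.48, 1.72 and 0.0496 CPM, as did Alas2, which starts heme synthesis in erythroid cells, at 4.84, 0.361 and 1.40 CPM against 0.814, 0.404 and 0.0496 CPM. All 5 genes overlapped between the groups. The near-identical globin copies can share reads, so their separate values are uncertain. Without intracranial-only replicate 1 the median was -1.69, and over the 6 omissions it ran from -3.38 to -1.69. Under therapy it was -0.17. How much of this comes from blood left in the dissected tissue was not tested.

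Hmox1, heme oxygenase, which breaks down heme, was at 448, 204 and 162 CPM against 111, 156 and 72.9 CPM. The groups were apart by a small margin, with a log2 fold change of -1.26 ± 0.57 (edgeR unadjusted p = 0.0486), and -0.69 without intracranial-only replicate 1. Of the 8 iron and heme genes, Hmox1 and Hamp were lower without overlap. Hamp encodes the iron hormone hepcidin, which hepatocytes make, and its log2 fold change of -0.87 stands beside a median of -0.69 over 28 hepatocyte transcripts described below, whose part in it was not tested. It was -0.55 without intracranial-only replicate 1. Fth1 and Ftl1, which encode the ferritin chains, had log2 fold changes of -0.19 and -0.08.

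Genes of the interferon gamma response did not separate the groups, because each group held both high and low libraries. Their mean log2 CPM was 1.35, 7.26 and 1.83 in the intracranial-only libraries and 5.99, 2.92 and 5.91 in the both-tumor libraries. The highest of all 6 was an intracranial-only library, and the lowest 2 were its own replicates. The list spanned 5.91 log2 units within the intracranial-only group and 3.06 within the both-tumor group, and the group means differed by 1.46. In 0 of 15 genes were the groups free of overlap.

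**Figure D2:**
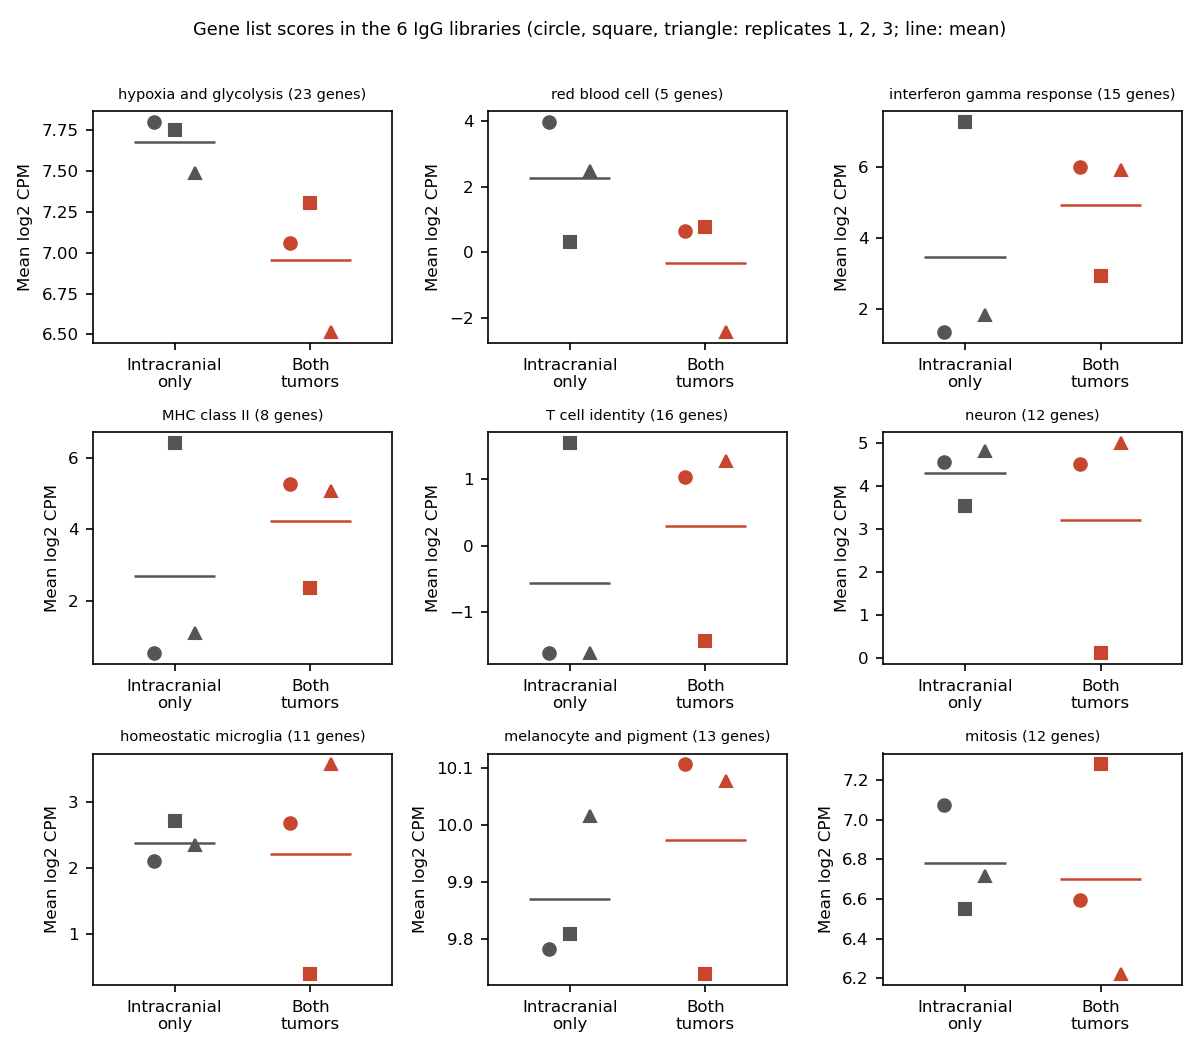
Mean log2 CPM of 9 gene lists in the 6 IgG libraries (circle, square and triangle are replicates 1, 2 and 3; lines are group means; vertical axes differ and do not start at 0). The interferon gamma, MHC class II and T cell panels show intracranial-only replicate 2 high and both-tumor replicate 2 low. Of the panels drawn, the hypoxia panel is the one in which the groups do not overlap. The vessel tip cell, hypoxia and angiogenic ligand, and heat shock lists, not drawn here, also had group scores that did not overlap.

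Cxcl9, a chemokine that interferon gamma induces and that draws activated T cells, was at 0.211, 71.0 and 0.591 CPM against 32.4, 3.59 and 41.4 CPM. Gbp2, an interferon-induced GTPase, was at 5.48, 543 and 6.29 CPM against 217, 25.9 and 187 CPM. For both genes intracranial-only replicate 2 exceeded all both-tumor libraries while its replicates were below all of them. Cd274, which encodes PD-L1, had the same order at 7.43, 75.7 and 8.86 CPM against 43.5, 8.79 and 47.5 CPM, except that intracranial-only replicate 3 and both-tumor replicate 2 were nearly level.

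Antigen-presentation genes were high and low in the same libraries. H2-K1, a classical class I heavy chain of the mouse (chr17:33996017-34000347), was at 84.5, 1430 and 86.9 CPM against 456, 152 and 610 CPM. Cd74, the class II invariant chain, was at 9.27, 707 and 11.9 CPM against 279, 27.2 and 207 CPM. The class II list shows how far the summary depends on the scale. The median log2 fold change of its 8 genes, fitted to group means of counts, was -0.44, whereas the difference between mean log2 CPM was 1.55 in the opposite direction. Without intracranial-only replicate 2 the median was 4.11, and without both-tumor replicate 2 it was 0.07. For the interferon gamma list the same figures were -0.08, 1.46, 4.14 and 0.44. No gene of either list had an adjusted p under 0.05 in any of these fits, and no direction is read from them.

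T cell genes were scarce throughout. Cd3e, part of the T cell receptor complex, was at 0, 3.25 and 0 CPM against 2.39, 0.253 and 2.33 CPM, and the libraries with 0 reads allow up to 0.158 and 0.161 CPM. Cd8a, of cytotoxic T cells, was at 0.105, 3.30 and 0.215 CPM against 1.72, 0.152 and 2.28 CPM. The killing enzyme gene Gzmb was at 0.0527, 27.0 and 0 CPM against 7.03, 0.404 and 3.12 CPM. In each case 1 intracranial-only library and 2 both-tumor libraries carried nearly all of the signal. Ifng, interferon gamma itself, was at 0, 2.48 and 0 CPM against 1.15, 0.202 and 0.545 CPM. Pdcd1, which encodes PD-1, was at 0.0527, 2.63 and 0.161 CPM against 1.53, 0.202 and 3.32 CPM. Foxp3, of regulatory T cells, was at 0.211, 0.619 and 0.269 CPM against 0.479, 0.152 and 0.744 CPM. Of the 16 T cell identity genes the median log2 fold change was 0.25, 13 were above 0, and 0 had groups that did not overlap. That median ran from -0.31 without both-tumor replicate 3 to 2.91 without intracranial-only replicate 2, and was also below 0 without intracranial-only replicate 1 or 3. Among the 11 checkpoint receptor genes 10 were above 0, with a median of 0.56, which was 1.65 without intracranial-only replicate 2 and between -0.066 and 0 without intracranial-only replicate 1 or 3 or both-tumor replicate 3. Tox and Btla had the highest, at 1.26 and 1.47 ± 0.76, with overlapping groups. Tox was at 0.31 without both-tumor replicate 3, and Btla at 2.64 without intracranial-only replicate 2. Layn was the exception, at 1.69, 1.34 and 1.40 CPM against 0.718, 0.758 and 1.29 CPM, lower without overlap.

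**Figure D3:**
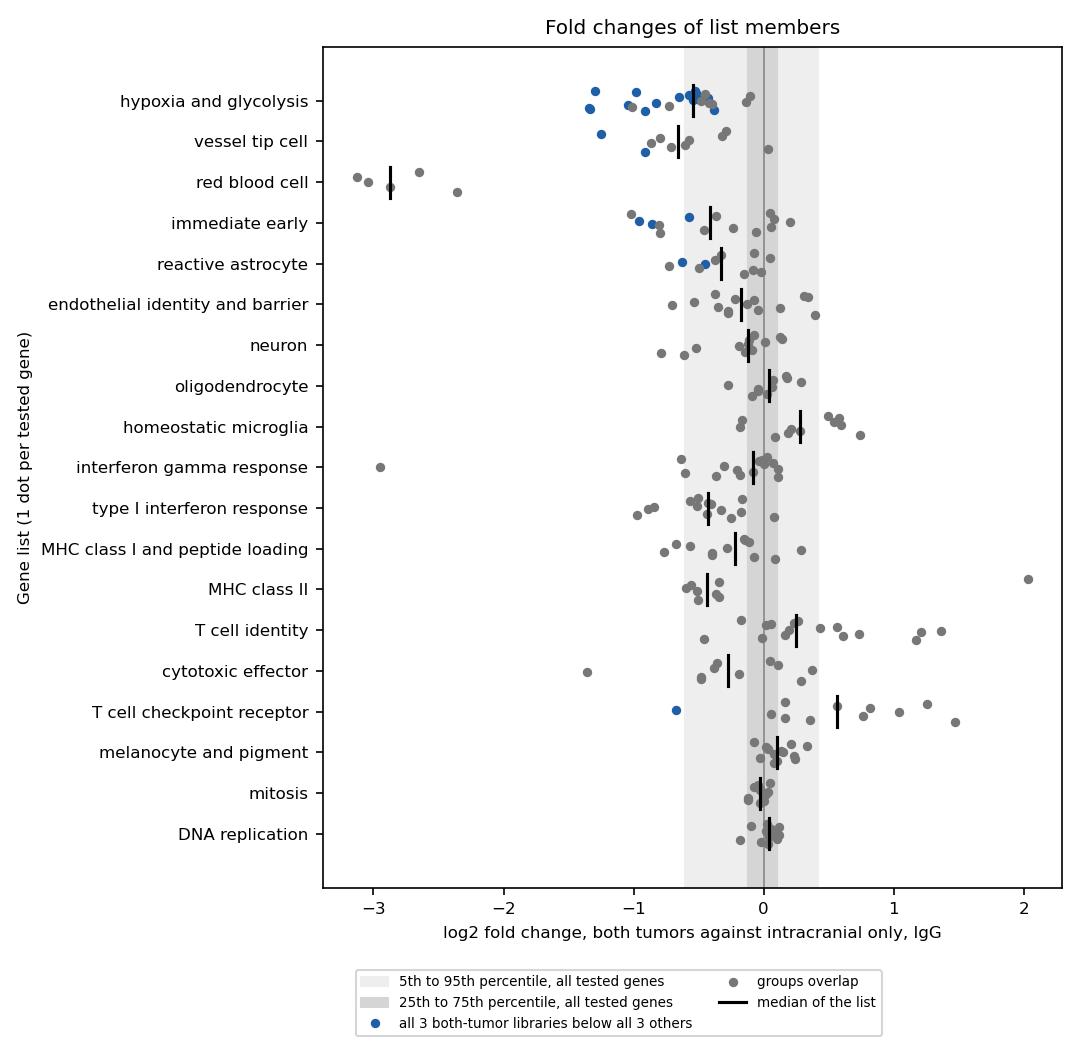
Log2 fold change (both-tumor against intracranial-only, IgG) of every tested member of 19 gene lists, 1 dot per gene; blue dots are genes whose groups do not overlap, black bars are list medians and grey bands show the spread of all 15925 genes. Blue dots gather in the hypoxia and glycolysis row, where the median is -0.54, and the red blood cell row lies farthest from 0.

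Brain tissue varied within the both-tumor group. Snap25, a synaptic vesicle fusion gene of neurons, was at 72.1, 24.9 and 88.5 CPM against 66.4, 1.26 and 119 CPM. Gfap, an intermediate filament of astrocytes, was at 191, 158 and 287 CPM against 193, 19.0 and 240 CPM. P2ry12, a receptor of resting microglia, was at 1.63, 2.12 and 1.88 CPM against 2.82, 0.910 and 4.76 CPM. The myelin gene Mbp was at 264, 179 and 347 CPM against 232, 155 and 439 CPM. Both-tumor replicate 2 was the lowest library for each of these, and apart from it the groups overlapped for Snap25, Gfap and Mbp, while both other both-tumor libraries were highest for P2ry12. The neuron list spanned 4.89 log2 units within the both-tumor group, while the group means differed by -1.09. In the neuron, astrocyte, oligodendrocyte and homeostatic microglia lists, 0 of 12, 10, 10 and 11 tested genes had groups that did not overlap. The median of the hypoxia and glycolysis list was -0.66 in a fit with the neuron list as a covariate.

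Genes of activated cells were lower in part. Of 14 immediate early genes, which respond within minutes to growth factors or activity, 3 were lower without overlap and the median was -0.41. It was -0.20 without intracranial-only replicate 3 and -0.23 without both-tumor replicate 2. Fosl2 was at 55.8, 66.5 and 55.8 CPM against 33.7, 33.4 and 24.8 CPM, at -0.95 ± 0.37. Fos was at 27.9, 29.6 and 27.9 CPM against 16.2, 19.0 and 11.9 CPM. Both encode subunits of the AP-1 transcription factor, as does Jun, at 46.4, 73.8 and 48.4 CPM against 39.9, 34.0 and 39.6 CPM. Egr1 and Nr4a1, of the same list, had log2 fold changes of -0.23 and 0.05 with overlapping groups. In the reactive astrocyte list, Osmr, the oncostatin M receptor, was at 10.4, 11.0 and 9.99 CPM against 8.76, 7.07 and 7.14 CPM, and S1pr3, a sphingosine phosphate receptor, was also lower without overlap.

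The tumor cells' own pigment program did not separate the groups. Dct, a melanin synthesis enzyme, was at 9088, 8544 and 10786 CPM against 10438, 9187 and 10334 CPM, and it was the most abundant gene counted in each IgG library. Pmel, of the melanosome, was at 5090, 6304 and 6937 CPM against 7318, 5407 and 6598 CPM. Mitf, the lineage transcription factor, differed by 0.24 ± 0.27. The groups overlapped for all 13 pigment genes, and their median was 0.10. Per kilobase of gene length, on the authors' FPKM scale, mean levels in the intracranial-only group were 4203 for Dct, 2880 for Pmel, 373 for Mitf, 850 for Pgk1, 88.5 for Vegfa and 0.454 for Cd8a. Mki67, which marks cycling cells, was at 300, 167 and 280 CPM against 231, 299 and 178 CPM. Mitosis and DNA replication genes had medians of -0.03 and 0.04 (-0.40 and -0.28 without both-tumor replicate 2), with 0 of 12 free of overlap in each list.

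Beyond the lists, the named genes with the largest separated differences were mostly of low abundance. Shisa8 (chr15:82206168-82212815), an auxiliary subunit of glutamate receptors, was at 1.05, 3.20 and 0.591 CPM against 0.239, 0.0505 and 0.347 CPM, a log2 fold change of -2.89 ± 0.85 (edgeR unadjusted p = 0.00639), or -1.92 without intracranial-only replicate 2. Aire (chr10:78030022-78043610), known for driving expression of tissue antigens in the thymus, was at 12, 9.50 and 7.95 CPM against 3.64, 4.30 and 1.93 CPM. Its log2 fold change was -1.57 ± 0.47 (edgeR unadjusted p = 0.00664). Under therapy it was -2.08 (edgeR adjusted p = 0.00713), where 7231 of all 15925 genes passed the adjusted threshold. Stc1, a secreted glycoprotein hormone, was at 22.8, 22.8 and 12.9 CPM against 6.75, 12.3 and 2.38 CPM. Smtnl2 was at 19.0, 13.3 and 10.5 CPM against 4.21, 8.29 and 1.78 CPM. Tgm1, a transglutaminase of the skin barrier, was at 8.85, 3.05 and 3.55 CPM against 1.87, 0.303 and 1.69 CPM. Nptx2, a neuronal pentraxin, was at 9.11, 11.8 and 5.32 CPM against 2.78, 0.101 and 4.81 CPM. These groups were apart, for Nptx2 by a narrow margin. Defb25, Tmem74b, Grm4 and P4ha3 had log2 fold changes between -1.71 and -1.36 and were at most at 2.05 CPM in any of the 6 libraries.

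Higher genes were fewer and had smaller differences. Rwdd2a (chr9:86571991-86574899) had the smallest unadjusted p among them, 0.00464 in edgeR, at 1.00, 1.08 and 1.34 CPM against 1.96, 1.92 and 3.47 CPM. Its log2 fold change was 1.10 ± 0.31. Under therapy it was 1.12 (edgeR adjusted p = 0.0134), again among 7231 of 15925 genes that passed there. Igf2, an insulin-like growth factor, was at 2.90, 3.82 and 1.83 CPM against 4.93, 6.37 and 7.34 CPM. Sema3c, a secreted guidance signal, was at 3.69, 2.74 and 2.79 CPM against 3.88, 10.6 and 5.40 CPM. Among more abundant genes, Tgfbr1, a transforming growth factor beta receptor, was at 52.3, 46.3 and 50.2 CPM against 54.1, 57.9 and 70.4 CPM. Slc17a5, a lysosomal sialic acid exporter, was at 23.2, 22.2 and 22.8 CPM against 27.5, 26.6 and 31.8 CPM, a log2 fold change of 0.33 ± 0.11. Zfp646 differed by 0.28 ± 0.11. Aspn and Olfml2a, both of the extracellular matrix, had the highest fold changes among genes with a mean of 1 CPM or more in a group and no overlap, at 1.86 ± 1.00 and 1.45 ± 0.55. For both, the highest library was both-tumor replicate 2, and without it the values were 1.18 and 0.53. Zfp711, Anxa8, Pcdha11, Gdf7, Dcstamp, Aloxe3 and Zfp551 lay between 0.66 and 1.16 and below 3 CPM in all 6 libraries.

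Several genes with the smallest unadjusted p are made by the liver. Saa2, an acute-phase protein, was at 18.2, 15.5 and 8.92 CPM against 6.51, 8.74 and 7.24 CPM, with a log2 fold change of -0.92 ± 0.27 (edgeR unadjusted p = 0.00564). Ahsg, fetuin A, was at 17.7, 13.1 and 8.11 CPM against 6.84, 7.07 and 6.35 CPM. Serpina1a and Orm1, which encode further plasma proteins, differed by -1.07 ± 0.33 and -1.01 ± 0.31. A list of 28 hepatocyte genes was drawn up after these values were seen, so it is described and not tested. All 28 were below 0, with a median of -0.69. In 11 of them (39.3%) the groups did not overlap, where 2.78% of all genes were lower without overlap. Their summed level was 424, 343 and 209 CPM in the intracranial-only libraries and 201, 213 and 179 CPM in the both-tumor libraries. The first pair of libraries was high, and intracranial-only replicate 3 lay within the both-tumor range. All 28 transcripts had reads in all 12 libraries of the series. Alb, albumin (chr5:90460897-90476602), was at 154, 124 and 74.9 CPM against 77.1, 78.0 and 61.9 CPM. Under therapy the median of the list was -0.02. Over the 12 libraries the standard deviation of log2 CPM had a median of 0.449 over the 27 genes other than Alb. That of the log2 ratio to Alb had a median of 0.188 over the same 27 genes. How liver transcripts came to be in these libraries was not tested.

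**Figure D4:**
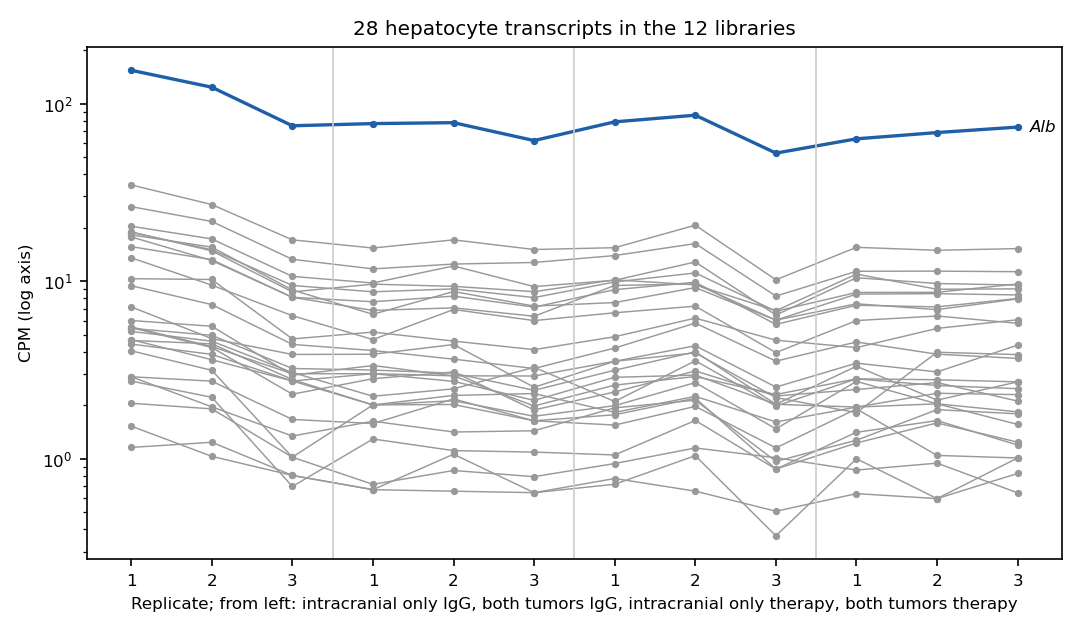
CPM (log axis) of 28 hepatocyte transcripts in all 12 libraries, 1 line per gene with Alb in blue; lines join libraries only to show which points belong to 1 gene. The lines run nearly parallel, and intracranial-only IgG replicates 1 and 2 are higher than the other libraries.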

How the data were processed

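RNA-seq counts of 12 brain tumors were used. Per the submitters' processing notes, the authors used TopHat2 2.0.12, Bowtie2 2.2.3 and HTSeq 0.6.1 with builds GRCm38 and mm10, and deposited raw read counts per Ensembl gene. The annotation release and strand setting are not given in the sources used here, so overlapping and antisense genes are uncertain. A second deposited table holds the authors' FPKM, which equalled count over length and library total for all 16062 genes with reads in every library (relative tolerance 1e-06).

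Of 47069 genes, 15925 passed filterByExpr of edgeR 4.0.16 (minimum count 10, minimum total 15), with at least 99.87% of reads. The quasi-likelihood test was fitted to 4 group means over 12 libraries with TMM in R 4.3.3, and the SE is the absolute log2 fold change over the square root of F. Adjusted p-values are Benjamini-Hochberg values with a threshold of 0.05. The labels call the groups biological triplicates. They give no batch or replicate number and link no library of a group to a library of another, so nothing was paired. Log2 CPM used a prior count of 2. The difference of the extracranial effects between antibodies was the other comparison tested. Alternatives were RLE, no filter, IgG libraries alone, a neuron covariate, DESeq2 1.42.0, limma 3.58.1 voom, log2(FPKM + 1), log2(FPKM + 0.1) and leaving out each library. List medians were also taken from differences of means and of medians of log2 CPM. The fit was also run on simulated counts with the same spread for every gene and no library that stood apart. That run does not show how the fit performs on libraries that stand apart, as here.

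The 52 gene lists, the members and the rule for named genes were chosen with earlier results of these data known, and 2 lists (hepatocyte, pituitary) after values here were seen. The rule required no overlap and, in either group, a mean level of 1 CPM or more, and took the 12 highest and 12 lowest by fold and 6 per direction by p, up to 3 members of each list described, and 26 further genes. Alas2, Alb, Aldoa, Angpt2, Car9, Egln3, Egr1, Epas1, Fth1, Ftl1, Hif1a, Hk2, Kdm3a, Ldha, Nr4a1, Pfkfb4, Pfkp, Pgk1 and Tox fall outside it and were chosen after their values were seen. Ca9 and Cd244 were matched as Car9 and Cd244a.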

Additional observations from a re-analysis of the deposited data

Results flagged for a closer look

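For 19 of the genes named above, the difference between both-tumor and intracranial-only libraries under therapy differed from that under IgG with an adjusted p under 0.05 in edgeR's quasi-likelihood test of the difference itself. The fold changes under each antibody come from different libraries. The test of their difference was fitted to all 12 libraries with a shared estimate of the spread. The values below are log2 fold changes under therapy minus those under IgG, and no explanation was tested. Genes of neurons, glia and brain synapses were at 9.29 for Nptx2, 8.45 for Grm4, 7.35 for Snap25, 5.54 for Gfap, 4.05 for Shisa8 and 3.07 for P2ry12. Nptx2, Grm4 and Shisa8 were below 0 under IgG (-1.77, -1.40 and -2.89) and above 0 under therapy (7.52, 7.05 and 1.16). Tgm1 and P4ha3 had the same pattern, with differences of 6.41 and 4.82. The neuron list summed to 105, 114 and 107 CPM in the intracranial-only therapy libraries and to 515, 1482 and 1318 CPM in the both-tumor therapy libraries. Under IgG its sums were 446, 320 and 565 CPM against 470, 109 and 678 CPM. All 12 neuron genes passed the test of the difference, as did 22.0% of all genes. How much of the differences above comes from neighbouring brain tissue was not tested.

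Immediate early and reactive genes also differed, by 3.42 for Egr1, 2.11 for Jun, 2.86 for S1pr3 and 1.67 for Osmr. Of the immune and vessel genes, Foxp3 differed by 3.02, Layn by 2.57 and Pecam1 by 1.11. Fth1 differed by 0.88. In the opposite direction were Mki67 at -2.03, Aloxe3 at -1.87 and Zfp646 at -0.56. The adjusted p ran from 0.0321 for Jun to 0.0399 for Aloxe3. Of all 15925 genes 3505 passed this test, so a named gene that did so was no exception. The count was 0 without intracranial-only IgG replicate 2 or 3, both-tumor IgG replicate 1, any intracranial-only therapy replicate, or both-tumor therapy replicate 2 or 3.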

How the results depend on the processing

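No gene passed the adjusted threshold under any alternative run, and the count of 0 became 188 only where the p was left unadjusted. The count of genes whose difference between antibodies passed ran from 0 to 4367 over the single omissions and was 4954 with DESeq2. Genes with no overlap numbered 808 to 2019 lower and 621 to 1689 higher over the omissions, where 2 libraries instead of 3 make separation easier. The hypoxia and glycolysis median stayed between -0.69 and -0.47 under the 12 alternatives for which list medians were computed. These were RLE, IgG libraries alone, the neuron covariate, log2(FPKM + 1), differences of means and of medians of log2 CPM, and each omission of an IgG library. List medians were not computed for DESeq2, voom, log2(FPKM + 0.1) or no filter. The direction of genes near 0, or carried by 1 library, changed when a library was left out. Their lowest and highest log2 fold changes over the omissions were Angpt2 (-0.075 to 0.12), Cd274 (-0.35 to 2.03), Cd74 (-1.07 to 4.01), Cd8a (-0.36 to 3.07), Cxcl9 (-0.47 to 5.99), Egr1 (-0.72 to 0.19), Foxp3 (-0.21 to 0.92), Gbp2 (-0.94 to 4.61), Gfap (-1.0 to 0.029), Gzmb (-2.35 to 6.75). The others were H2-K1 (-0.90 to 2.25), Ifng (-1.13 to 6.68), Mbp (-0.44 to 0.35), Mki67 (-0.29 to 0.092), Nr4a1 (-0.073 to 0.14), P2ry12 (-0.0046 to 1.01), Pdcd1 (-0.13 to 3.91), Pfkfb4 (-0.34 to 0.11), Pmel (-0.039 to 0.19), Snap25 (-0.87 to 0.58). Other settings that changed the direction were log2(FPKM + 1) for Cd74 (1.36), Gbp2 (1.73), Gzmb (0.089), H2-K1 (0.66), Ifng (0.042), Mbp (-0.016), Snap25 (-0.82), and the neuron covariate for Angpt2 (-0.032), Cxcl9 (-0.10), Egr1 (0.024). The cause was not tested. The remaining named genes kept their direction in these settings. No paired analysis was run, because the labels link no library of a group to a library of the other. A gene that missed the threshold is not shown to be equal between the groups.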

Other observations

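Few genes of the lists not described above had groups without overlap under IgG. Of 12 dendritic cell genes 10 were above 0 with a median of 0.43, led by Ccr7, the receptor that takes dendritic cells and T cells to lymph nodes, at 1.13, and 0 of 12 had groups that did not overlap. Over single omissions the median ran from 0.04 without intracranial-only replicate 1 to 2.17 without replicate 2 of that group, and Ccr7 from 0.66 to 3.23 without the same libraries. Neutrophil genes had a median of -0.85, or 0.22 without intracranial-only replicate 2, over the 6 of 12 that passed the filter on low counts, and Ly6g, which defines these cells, had 1 read in the 6 libraries together. Of 8 heat shock genes, Hspa1b, an inducible chaperone, was lower without overlap, at 4.48, 7.54 and 6.66 CPM against 4.16, 3.89 and 2.38 CPM. Kcnj8, a potassium channel gene of brain pericytes, was also lower without overlap, at 3.37, 3.10 and 3.28 CPM against 1.72, 2.17 and 1.49 CPM, while 12 other pericyte, fibroblast and collagen genes overlapped. Circadian clock genes had a median of -0.02 over 15 genes and glucocorticoid response genes one of -0.05 over 11. Among markers of tissue outside the brain, the keratin gene Krt5 had 0 reads in the 6 libraries and 7 skeletal muscle genes summed to 2.87 to 4.80 CPM. The 6 bone and cartilage genes summed to 33.7 to 125 CPM in the intracranial-only libraries and 17.7 to 49.5 CPM in the both-tumor libraries.

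The differences in level between replicates were often as large as those between the groups. Of 15925 genes, 542 had group means more than 1 log2 unit apart, and 299 had a difference between group means that exceeded the range of the replicates in both groups.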
